A study of Mus musculus with 8 samples.

Results

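The genes described here are 44 mouse genes of the interferon response and of antigen presentation on MHC class I. They were taken by symbol from the deposited table of 23337 gene symbols, and all 44 were found. They comprise interferon receptors, the transcription factors that act downstream of them, sensors of foreign RNA, antiviral effectors, enzymes that attach or remove ISG15, ubiquitin or ADP-ribose, the inducible proteasome subunits, and the proteins that load peptides on class I. Of the 44, 35 reached a normalized count of 10 in 4 or more libraries and were tested, and 9 did not. Each of the 35 reached 10 in at least 1 library of each substrate. Usp18 did so in 4 libraries on 3D and 2 on 2D, and Oasl2 and Ifit2 in 4 and 3. Ifit3 and Isg15 did so in 3 libraries on 3D and 4 on 2D.

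Interferons are secreted proteins that bind receptors on the cell surface and activate STAT transcription factors through Janus kinases. STAT proteins join IRF9 in a complex that binds the interferon-stimulated response element (ISRE) in the promoters of target genes, and IRF7 amplifies type I interferon production. Part of the target programme is the class I pathway, in which the proteasome cuts proteins into peptides, TAP carries them into the endoplasmic reticulum, and beta-2 microglobulin joins the heavy chain that presents them to T cells. Epithelia of the reproductive tract express parts of this programme at rest.

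RNA came from MOE cells, a murine oviductal epithelial line of the FVB mouse strain and an established line from the mouse counterpart of the human fallopian tube. Cells detached with trypsin at confluence were put on 3D collagen gels or on 2D collagen and harvested 6 h later, all in standard MOE medium that lacked EGF. There were 4 libraries from 3D collagen and 4 from 2D collagen, with no other treatment or genetic change named in the labels and a single line as the model. Depth ranged from 15692699 to 25862036 reads per library. Whether the replicates were separate cultures is not stated in the labels, and p-values therefore reflect library-to-library spread that may be only technical.

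Values are the authors' normalized counts, which the values themselves show to be read counts divided by 1 factor per library. Differences are log2 fold changes of 3D over 2D on the log2(normalized count + 1) scale, which understates changes of low genes, tested with limma across 11820 genes with Benjamini-Hochberg adjustment and a threshold of 0.05. Some libraries stood apart. In 2D replicate 2 transcripts of 60% GC lay 1.68 log2 units above transcripts of 40% GC, relative to the mean of all libraries, against -0.79 to 0.19 in the other libraries. Of the oviductal epithelial markers, Krt8, Krt18 and Pax8 were abundant, Cdh1 was at most 104 in any library, and Epcam (at most 29.9) and the oviductal glycoprotein Ovgp1 (at most 27.2) were near 0. Their sum ranged from 69646 to 93722 in 3D and from 97221 to 125380 in 2D, and Krt8 and Krt18 were each lower in every 3D library than in any 2D library. Summed ciliated cell markers, 2 of 3 found, ranged from 4070 to 6741 in 3D and from 6962 to 13481 in 2D, also without overlap. Most of this sum was Tubb4b. The other marker found, Foxj1, ranged from 161 to 1028 in 3D and from 1009 to 1843 in 2D, with overlap. The summed leukocyte markers, 7 of 8 found, ranged from 315 to 566 in 3D and from 141 to 383 in 2D, nearly all of it Cd68, with the pan-leukocyte gene Ptprc at no more than 3.7 in 3D and 2.4 in 2D. Summed intestine markers ranged from 24.7 to 204 in 3D and from 26.3 to 489 in 2D, and liver markers from 2.80 to 362 in 3D and from 24.3 to 448 in 2D. The part of these marker transcripts in the results was not tested.

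On 3D collagen, 4 of the 35 tested genes were higher than on 2D collagen and none was lower. These were B2m, the light chain of MHC class I, Oasl2, an interferon-induced oligoadenylate synthetase-like protein, Irf7, and Ifitm3, a membrane protein that blocks virus entry. The 4 genes are 11.4% of those tested, beside 2.33% of all tested genes called higher and 3.39% called lower. On the recovered reads edgeR called 4 higher and 0 lower, beside 2.61% and 3.12% of all tested genes, and DESeq2 called 7 higher and 0 lower, beside 5.99% and 7.37%. At an unadjusted limma p under 0.05 there were 11 higher (31.4%, beside 11.7% of all tested genes) and 1 lower, Ifit3 (2.86%, beside 12.6%). The log2 fold change was above zero in 28 of the 35 (80.0%, beside 51.5% of all tested genes), with a median of 0.37, beside 0.02 over all tested genes, and a range of -0.98 to 1.73. Under the other scalings and tools run, between 27 and 33 of the 35 were above zero, the 33 by library size, a scaling that puts the median of all tested genes at 0.19. The groups did not overlap for 5 genes higher on 3D (14.3%, beside 8.05% of all tested genes) and for 1 gene lower on 3D, Irf3 (2.86%, beside 10.4%). In bulk RNA a smaller number of expressing cells and less RNA per cell cannot be told apart.

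**Figure D1:**
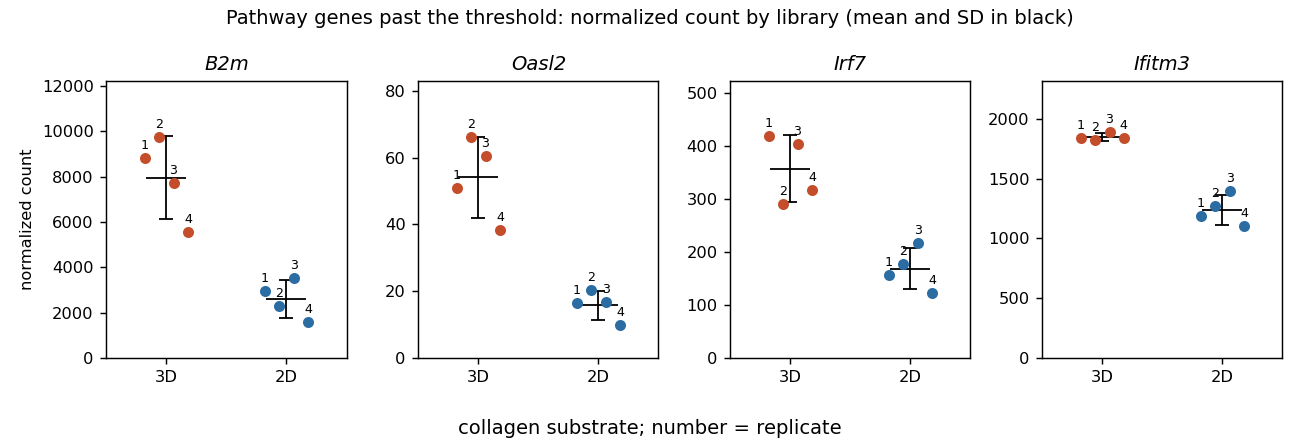
Normalized counts of B2m, Oasl2, Irf7 and Ifitm3 in each of the 4 libraries on 3D collagen (left) and 2D collagen (right), with black lines at the group mean and 1 SD. For each of the 4 genes all 3D libraries lie above all 2D libraries, with group means of 7959 and 2581 for B2m and 1850.0 and 1240.2 for Ifitm3.

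B2m had 8841, 9737, 7718 and 5539.9 normalized counts in 3D replicates 1 to 4, against 2970.5, 2284, 3506 and 1563 in 2D replicates 1 to 4. Every 3D library lay above every 2D library, and replicate 4 was the lowest in each group. The gene averaged 7959 ± 1812 on 3D and 2581 ± 843 on 2D (SD, n = 4 each), a 3.08-fold ratio of means. The log2 fold change was 1.66 (SE 0.27, 95% interval 1.04 to 2.27, limma adjusted p = 0.0127). Leaving out 3D replicate 3 gave an adjusted p of 0.0510 with a log2 fold change of 1.66, and removing the GC trends gave 0.0616 with 1.38; 18 of 20 alternatives stayed under the threshold, and their adjusted p ranged from 2.07e-06 to 0.0616. Its transcript is 41.2% GC, and without 2D replicate 2 the log2 fold change was 1.62 (limma adjusted p = 0.0223). B2m lies at chr2:122147686-122153083 on mm10. Per kb of exon, B2m was the most abundant of the 44 genes on 3D, with 9254 normalized counts, and came after Ifitm2 on 2D, with 3001.

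Oasl2, at chr5:114896936-114912234, had 51.0, 66.4, 60.6 and 38.4 normalized counts in the 3D libraries against 16.6, 20.3, 16.6 and 9.80 in the 2D libraries. It is a low gene, and its groups stood apart without overlap. Means were 54.1 ± 12.2 on 3D and 15.8 ± 4.38 on 2D (SD, n = 4 each), a 3.42-fold ratio. On the log2 scale the fold change was 1.73 with an SE of 0.32 and a 95% interval of 1.00 to 2.45 (limma adjusted p = 0.0197). Leaving out 3D replicate 1, 2 or 3 ended the call, at a limma adjusted p of 0.0605, 0.0746 and 0.0830.

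Irf7, at chr7:141262706-141266481, had 418, 289.9, 403 and 316 normalized counts on 3D and 157, 177, 217 and 123 on 2D. The lowest 3D library was above the highest 2D library. Means were 357 ± 63.2 on 3D and 168 ± 39.3 on 2D (SD, n = 4 each), a 2.12-fold ratio. The log2 fold change was 1.09 with an SE of 0.24 and a 95% interval of 0.56 to 1.62 (limma adjusted p = 0.0305). Leaving out any single 3D replicate, 2D replicate 1, 2D replicate 4 or both replicates numbered 4 ended the call, at a limma adjusted p between 0.0526 and 0.121.

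Ifitm3, at chr7:141009586-141010770, had 1838, 1826, 1893 and 1844 normalized counts on 3D against 1189.7, 1272, 1398 and 1101 on 2D. The 3D libraries lay within a narrow band above the whole 2D range, and replicate 4 was not low in the 3D group. Means were 1850.0 ± 29.5 on 3D and 1240.2 ± 127 on 2D (SD, n = 4 each), a 1.49-fold ratio. This is a log2 fold change of 0.58 with an SE of 0.13 and a 95% interval of 0.30 to 0.87 (limma adjusted p = 0.0308). Its call was lost in the same leave-outs as that of Irf7, with limma adjusted p between 0.0569 and 0.119. Part of its exonic sequence is shared, in stretches of 50 bases, with other genes, so reads there could be split.

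Promoter sequences are shown for these 4 genes, to set the letters of the response element beside genes that differ in their values. Those of Isg15 and Ifit3, interferon targets that were not higher on 3D, are also shown. Isg15 and Ifit3 were picked for the most motif matches among genes not called with a log2 fold change under 0. RefSeq promoters on GRCm38.p6, running from 250 bases before to 50 bases after the annotated start, were given for 37 of the 44 genes. They are printed 5′ to 3′ on the strand of the gene, and capitals mark matches to an ISRE-like motif, searched on both strands, of GAAA, any 2 bases and GAAA again (TTTC, any 2 bases and TTTC on the other strand). Positions give the first base of a match, with the start site at 0.
B2m (chr2:122147437-122147736, plus strand): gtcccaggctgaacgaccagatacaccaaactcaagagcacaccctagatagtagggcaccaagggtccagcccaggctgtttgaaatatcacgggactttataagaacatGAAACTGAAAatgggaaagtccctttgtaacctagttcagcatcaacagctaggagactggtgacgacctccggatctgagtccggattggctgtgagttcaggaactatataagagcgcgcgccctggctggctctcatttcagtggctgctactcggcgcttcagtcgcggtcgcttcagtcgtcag
Ifitm3 (chr7:141010695-141010994, minus strand): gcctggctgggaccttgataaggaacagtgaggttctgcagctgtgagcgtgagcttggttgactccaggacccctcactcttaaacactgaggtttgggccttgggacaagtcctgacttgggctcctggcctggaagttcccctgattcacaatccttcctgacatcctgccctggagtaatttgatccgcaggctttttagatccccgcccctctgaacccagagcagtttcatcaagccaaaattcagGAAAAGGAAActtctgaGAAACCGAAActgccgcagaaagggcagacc
Irf7 (chr7:141266375-141266674, minus strand): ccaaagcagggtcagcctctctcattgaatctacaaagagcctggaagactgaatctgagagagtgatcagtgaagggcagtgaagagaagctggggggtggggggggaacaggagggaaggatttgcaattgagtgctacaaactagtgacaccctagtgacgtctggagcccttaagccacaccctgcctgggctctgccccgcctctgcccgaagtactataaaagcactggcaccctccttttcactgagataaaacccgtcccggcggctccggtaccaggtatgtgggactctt
Oasl2 (chr5:114896684-114896983, plus strand): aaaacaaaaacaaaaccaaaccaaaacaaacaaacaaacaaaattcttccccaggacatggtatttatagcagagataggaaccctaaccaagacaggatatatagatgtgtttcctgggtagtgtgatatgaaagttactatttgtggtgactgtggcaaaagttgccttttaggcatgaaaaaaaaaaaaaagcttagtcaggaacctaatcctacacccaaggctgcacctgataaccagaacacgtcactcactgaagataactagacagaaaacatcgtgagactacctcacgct
Isg15 (chr4:156200769-156201068, minus strand): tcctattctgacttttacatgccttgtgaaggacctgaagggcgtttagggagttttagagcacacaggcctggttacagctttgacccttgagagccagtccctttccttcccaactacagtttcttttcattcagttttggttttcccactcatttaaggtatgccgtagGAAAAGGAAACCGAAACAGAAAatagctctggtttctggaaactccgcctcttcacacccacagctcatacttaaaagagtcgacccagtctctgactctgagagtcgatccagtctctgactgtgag
Ifit3 (chr19:34583279-34583578, plus strand): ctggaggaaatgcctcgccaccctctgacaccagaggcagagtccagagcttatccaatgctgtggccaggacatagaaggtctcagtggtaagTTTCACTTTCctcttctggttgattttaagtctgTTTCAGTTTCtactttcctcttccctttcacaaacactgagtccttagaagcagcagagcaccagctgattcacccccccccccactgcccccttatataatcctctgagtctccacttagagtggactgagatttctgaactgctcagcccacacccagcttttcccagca

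The B2m window held 1 match, at -139, and the Ifitm3 window 2, at 2 and 19, while the windows of Irf7 and Oasl2 held none. The Isg15 window held 3 overlapping matches, at -78, -72 and -66, and the Ifit3 window held matches at -156 and -122. Neither gene was higher on 3D, which was fixed by picking them for matches and a log2 fold change below 0. Of the 37 genes with a window, 14 (37.8%) held at least 1 match, beside 3.99% of 27025 genes with a RefSeq promoter. The palindromic STAT-type motif TTCNNNGAA was in 10 of the 37 (27.0%), beside 9.55% of all genes, and in the Ifitm3 window, at 13, it overlapped the second ISRE-like match. Among the 31 tested genes with a window, 10 held the ISRE-like letters. Of these 10, 2 were called higher and 8 were not, and 4 of the 8 had a log2 fold change below 0 (Isg15, Ifit3, Stat2 and Ifitm2). A match describes letters in the window and is not a site of binding.

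**Figure D2:**
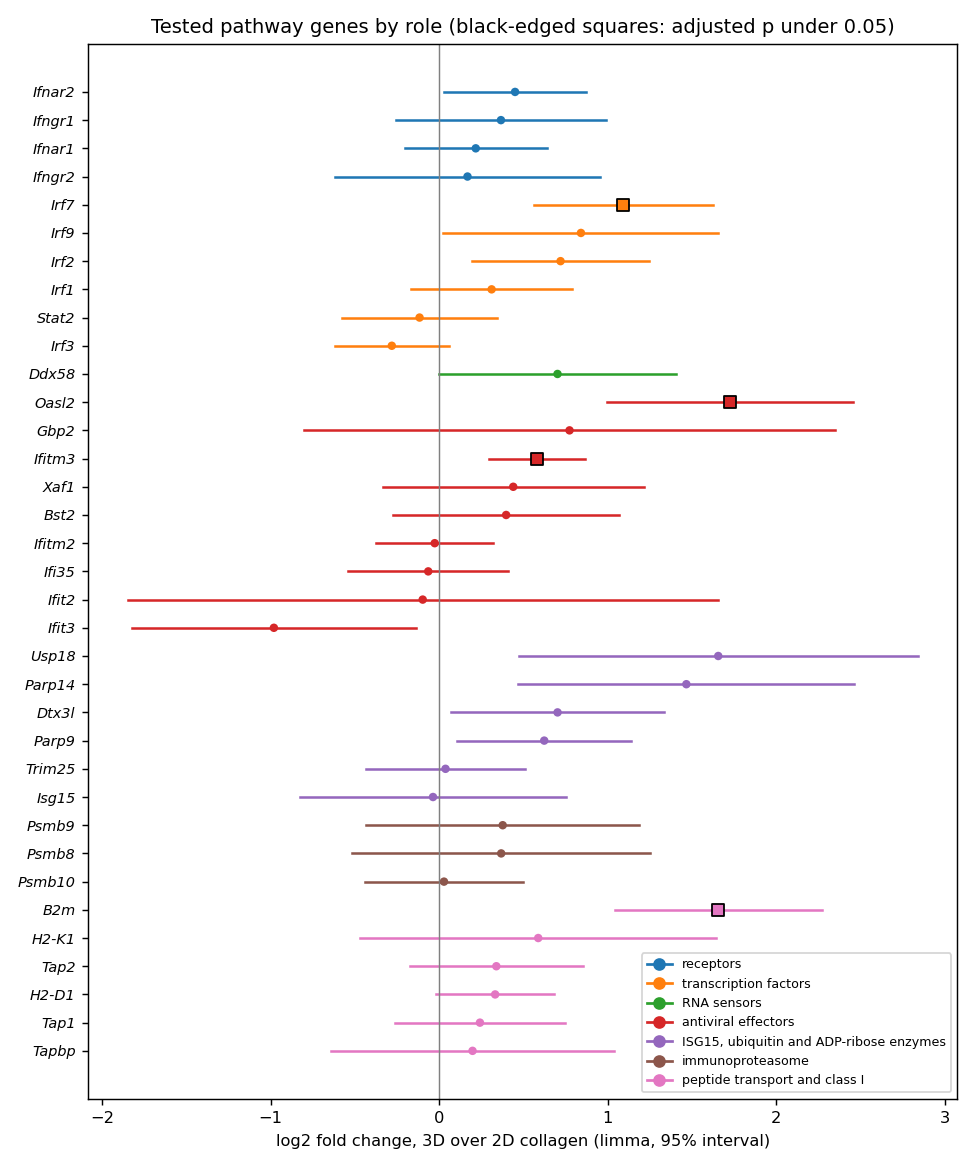
Log2 fold change of 3D over 2D collagen for the 35 tested genes, ordered within their roles, with points at the limma estimate and lines for the 95% confidence interval; black-edged squares passed the threshold. Of the 35 points, 28 lie above zero, and Irf7, Oasl2, Ifitm3 and B2m passed.

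No transcript of an interferon itself passed the filter. Of 13 interferon genes found, 11 had 0 reads in all 8 libraries, a count that allows up to 3 reads per library, and the other genes, Ifnab and Ifne, had 3 reads together. The 4 receptor chains were all tested and none passed the threshold; their median log2 fold change was 0.29. Ifnar2, a chain of the type I receptor, had 1544, 1187, 1188 and 915 normalized counts on 3D against 829, 815, 1078 and 784 on 2D. Its groups overlapped through 3D replicate 4 and 2D replicate 3, and the log2 fold change was 0.45 (95% interval 0.03 to 0.87, limma adjusted p = 0.181). A gene model on the same strand covers 9.46% of its exonic bases. Ifngr2, the most abundant receptor chain per kb and part of the interferon gamma receptor, had 4834, 3949, 3475 and 1579 on 3D and 3216, 3550.1, 3099.6 and 1857 on 2D. Replicate 4 was lowest in both groups, and the groups overlapped. Its log2 fold change was 0.17 (95% interval -0.62 to 0.95, limma adjusted p = 0.809). Ifnar1 had a log2 fold change of 0.22 and Ifngr1 of 0.37; Ifngr1 reached only 812 in 2D replicate 2 against 1512 to 2186 in the other 2D libraries.

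Among the 6 transcription factors 1 was higher, Irf7, and the median log2 fold change was 0.52. Irf3, the constitutive factor that starts interferon beta transcription and the most abundant of the 6 per kb, was the gene with the opposite order. It had 2059, 1797, 2053 and 1636 normalized counts on 3D against 2184, 2796, 2095 and 2117 on 2D. All 3D libraries lay below all 2D libraries, 2D replicate 2 was far above the others, and the difference did not pass (log2 fold change -0.28, 95% interval -0.62 to 0.06, limma adjusted p = 0.292). Without the GC trends its log2 fold change was -0.08. Within a library, with 1 added to each count, Irf7 was 0.203, 0.162, 0.197 and 0.194 of Irf3 on 3D, against 0.0722, 0.0636, 0.104 and 0.0583 on 2D. Every 3D ratio exceeded every 2D ratio, for a pair picked after the values were seen. Irf2, an antagonist of Irf1, had 471, 484, 375 and 374 on 3D and 287, 184, 356 and 229 on 2D. Its groups did not overlap, but it did not pass (log2 fold change 0.72, limma adjusted p = 0.103), and DESeq2 gave an adjusted p of 0.0486. Irf9, the DNA-binding partner of the STATs, had 678, 632, 582 and 253 on 3D and 324, 296, 378 and 168 on 2D. Only 3D replicate 4 fell inside the 2D range. The log2 fold change was 0.84 (limma adjusted p = 0.194), and without both libraries numbered 4 it was 0.93 (limma adjusted p = 0.0350). Irf1 (0.31) and Stat2 (-0.12) did not pass.

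Of the 3 cytosolic RNA sensors 1 was tested. Ddx58, which encodes RIG-I, had 494, 610.3, 463 and 281 normalized counts on 3D against 393, 234, 337 and 179 on 2D. The groups overlapped through 3D replicate 4. Means were 462 ± 136 on 3D and 286 ± 97.1 on 2D (SD, n = 4 each), and the fitted difference was 0.70 log2 units (limma adjusted p = 0.207). Ifih1, the MDA5 sensor, had 3 reads in all on 3D and 5 on 2D, and Dhx58, its LGP2 cofactor, had 39 on 3D and 36 on 2D.

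**Figure D3:**
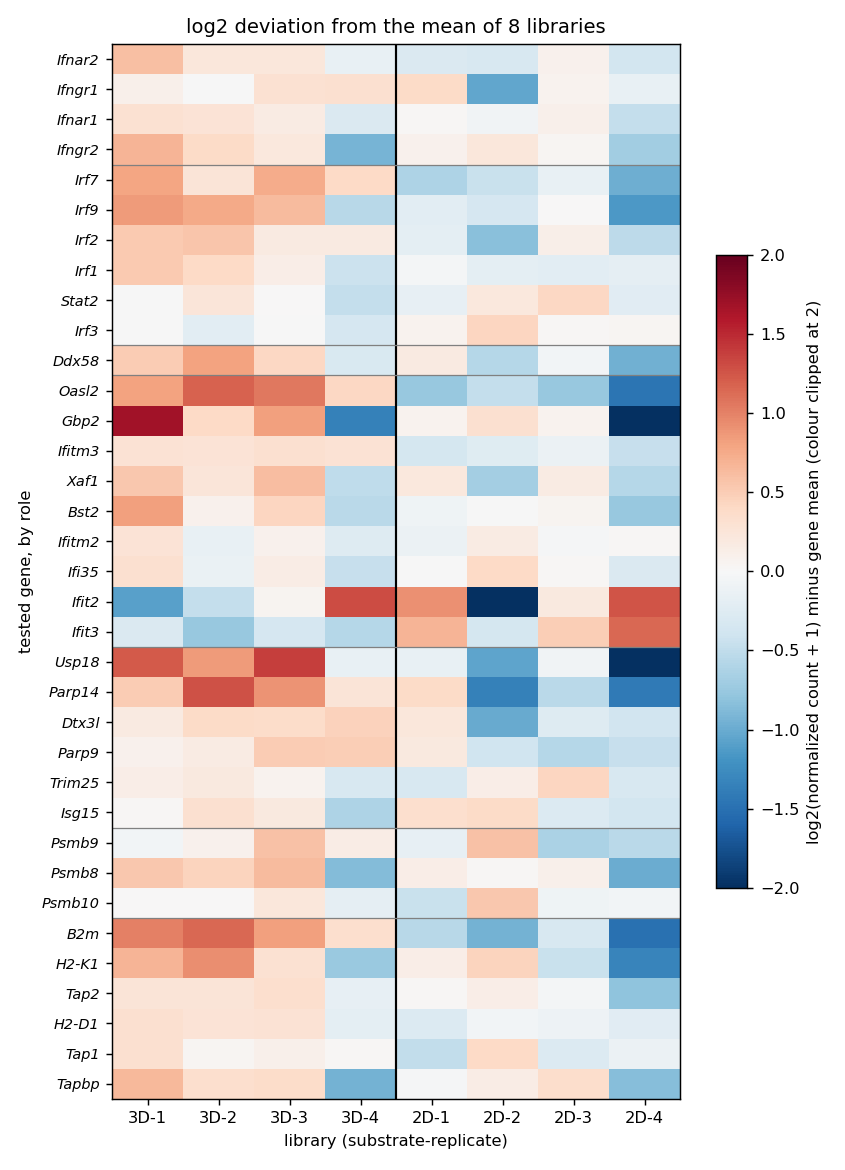
Values of the 35 tested genes in each of the 4 libraries on 3D collagen (left) and 2D collagen (right), in colour as log2 units from the mean of the gene over the 8 libraries (clipped at 2 units), in rows by role. Replicate 4 holds the lowest value of its group for 27 of the 35 genes on 3D and for 20 on 2D.

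Of the 16 antiviral effectors 9 were tested and 2, Oasl2 and Ifitm3, were higher; the median log2 fold change was 0.40. Several genes known as strongly interferon-inducible were at the edge of detection on both substrates. Summed over 4 libraries, reads were 4 on 3D and 8 on 2D for Ifit1, 19 on 3D and 16 on 2D for Oas1a, 4 on 3D and 3 on 2D for Mx1, and 15 on 3D and 14 on 2D for Ifitm1. Of the 50-base stretches of the longest Oas1a transcript, 57.6% are shared with Oas1g and other genes. The other 3 effectors below the filter had no overlap between the groups, each with more on 3D. They are 3 of the 7 genes of the 44 that were below the filter with at least 10 reads in all. Beside them, 3.36% of the 2053 such genes in the table had no overlap with more on 3D. These 3 genes each had well over 10 reads, and depth was not matched in this comparison.

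Rsad2, the enzyme viperin, had 11.3, 6.11, 5.60 and 6.40 normalized counts on 3D and 0, 0, 3.95 and 1.23 on 2D. Oasl1 had 7.93, 4.37, 7.46 and 11.0 on 3D and 2.92, 3.58, 3.16 and 1.23 on 2D. Mx2 had 6.79, 5.24, 12.1 and 5.49 on 3D and 4.87, 1.19, 4.75 and 4.90 on 2D. With no filter on low genes, none of the 3 passed limma (adjusted p = 0.0621 for Rsad2, 0.138 for Oasl1 and 0.387 for Mx2). These are 30, 32 and 31 reads in all on 3D and 6, 11 and 16 on 2D, so their folds are imprecise.

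Neither of the tested Ifit genes, which encode RNA-binding proteins, passed. Ifit3 had 12.5, 8.73, 12.1 and 10.1 normalized counts on 3D against 25.3, 11.9, 22.1 and 35.5 on 2D. The groups overlapped at 2D replicate 2 alone, and the gene did not pass (log2 fold change -0.98, SE 0.38, 95% interval -1.82 to -0.14, limma adjusted p = 0.152). Of the 50-base stretches of its longest transcript, 51.2% are shared with its neighbour Ifit3b, so its counts are uncertain. Ifit2 had 21.5, 33.2, 48.5 and 117 on 3D and 88.6, 9.56, 53.8 and 113 on 2D. Its highest value in each group was in replicate 4, where most of the genes were lowest, and its log2 fold change was -0.10 (95% interval -1.85 to 1.65). Its sign turned by library size (0.07) and with 1 library left out, where it ran from -0.84 to 0.30.

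Ifitm2, the most abundant effector per kb and a neighbour of Ifitm3, had 3759.8, 2796, 3309 and 2604 normalized counts on 3D and 2874, 3479.6, 3064 and 3178 on 2D. The groups overlapped, with a log2 fold change of -0.03 (95% interval -0.37 to 0.32, limma adjusted p = 0.936), whose sign turned with other scalings. Of the 50-base stretches of the longest Ifitm2 transcript, 48.5% are shared with other genes. A gene model on the same strand covers 40.9% of its exonic bases. The within-library ratio of Ifitm3 to Ifitm2 was 0.489, 0.653, 0.572 and 0.708 on 3D and 0.414, 0.366, 0.457 and 0.347 on 2D, with no overlap. This pair was picked after the values were seen, and its ratio was not tested. The other effectors did not pass. Their log2 fold changes were 0.77 for the guanylate-binding GTPase Gbp2, 0.44 for Xaf1, 0.40 for the virus-tethering protein Bst2 and -0.06 for Ifi35. Gbp2 had the widest spread of these, with 602, 247, 328 and 72.2 on 3D and 197, 234, 195 and 45.3 on 2D.

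All 6 genes of the ISG15, ubiquitin and ADP-ribose group were tested and none passed, with a median log2 fold change of 0.66. Usp18, which removes ISG15 from proteins and restrains the type I receptor, had 44.2, 34.1, 49.4 and 16.5 normalized counts on 3D against 16.6, 8.36, 17.4 and 3.68 on 2D. Only 3D replicate 4 fell within the 2D range. Its log2 fold change was 1.66 (SE 0.53, 95% interval 0.47 to 2.84, limma adjusted p = 0.0976), and DESeq2 gave an adjusted p of 0.0481. Parp14, an ADP-ribosyltransferase, had 63.4, 108, 84.0 and 53.0 on 3D and 58.4, 16.7, 30.1 and 15.9 on 2D. The overlap came from 2D replicate 1, and leaving that library out brought limma's adjusted p to 0.0357, beside 0.0842 with all libraries (log2 fold change 1.47, 95% interval 0.47 to 2.46); DESeq2 gave 0.0464.

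Isg15, the ubiquitin-like modifier itself, had 14.7, 18.3, 16.8 and 9.14 normalized counts on 3D and 18.5, 19.1, 11.9 and 11.0 on 2D. The groups overlapped, with a log2 fold change of -0.04 (95% interval -0.83 to 0.75, limma adjusted p = 0.963). Trim25, a ubiquitin ligase that acts on RIG-I and the most abundant of the group per kb, had 1028, 1069.5, 981 and 744 on 3D and 745, 1028, 1257 and 751 on 2D (log2 fold change 0.04). The partner genes Parp9 and Dtx3l, which share a promoter region and overlap in 9.40% of the exonic bases of Parp9, had log2 fold changes of 0.62 and 0.70 (limma adjusted p = 0.141 and 0.169). Both were among the genes in which replicate 4 was not low on 3D, with 343 for Parp9 and 189 for Dtx3l.

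The 3 inducible proteasome subunits were tested and none passed, with a median log2 fold change of 0.37. Psmb9 had 15.9, 17.5, 25.2 and 18.3 normalized counts on 3D and 14.6, 25.1, 10.3 and 11.0 on 2D (log2 fold change 0.38, 95% interval -0.43 to 1.19). Psmb10, the most abundant of the 3 per kb, had 891, 891, 1037 and 780.1 on 3D and 653, 1282, 834 and 849 on 2D (log2 fold change 0.03, 95% interval -0.44 to 0.50). Both overlapped between the groups, as did Psmb8 (log2 fold change 0.37), of which an antisense gene model covers 14.7%.

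Of the 6 genes of peptide transport and class I, only B2m passed; the median log2 fold change was 0.34. H2-D1, a class I heavy chain, had 4321, 4182, 4221 and 3017 normalized counts on 3D against 2864, 3328, 3239 and 2966 on 2D. Only 3D replicate 4 lay within the 2D range. The log2 fold change was 0.33 (95% interval -0.02 to 0.68, limma adjusted p = 0.226), and it was called after GC trends were removed (0.52, limma adjusted p = 0.0359) or with library size as the scaling (0.51, limma adjusted p = 0.0418). H2-K1, the other heavy chain listed, had 188, 225, 146 and 69.5 on 3D and 129, 160.1, 86.2 and 46.6 on 2D (log2 fold change 0.59, 95% interval -0.47 to 1.64). Class I genes resemble each other, so their counts are uncertain. Of the 50-base stretches of the longest transcript, 14.3% for H2-D1 and 8.11% for H2-K1 are shared with other genes. The transporter subunits Tap1 (0.24) and Tap2 (0.34) and the loading protein Tapbp (0.20) did not pass, and antisense gene models cover 14.1% of Tap2 and 24.9% of Tapbp.

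B2m was compared with the heavy chain within each library, a pair picked after the values were seen and given without a test. B2m was 2.05, 2.33, 1.83 and 1.84 times H2-D1 on 3D against 1.04, 0.686, 1.08 and 0.527 times on 2D. Every 3D ratio exceeded every 2D ratio, with means of 2.01 ± 0.235 on 3D and 0.833 ± 0.270 on 2D (SD, n = 4 each). The groups differed by 1.32 log2 units, and by 1.25 without 2D replicate 2. Counts in these ratios were not divided by exon length, so a ratio below 1 does not place B2m under H2-D1. Per kb of exon, mean B2m lay above mean H2-D1 on both substrates. The values were 9254 and 1526 on 3D, and 3001 and 1202 on 2D. A ratio within a library does not remove GC trends. With these removed, the log2 fold change of B2m fell to 1.38 and that of H2-D1 rose. With 1 added to each count, as in all these ratios, Oasl2 over Ifit3 was 3.56 to 6.92 on 3D and 0.296 to 1.65 on 2D. That pair, too, was picked after the values were seen and was not tested.

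**Figure D4:**
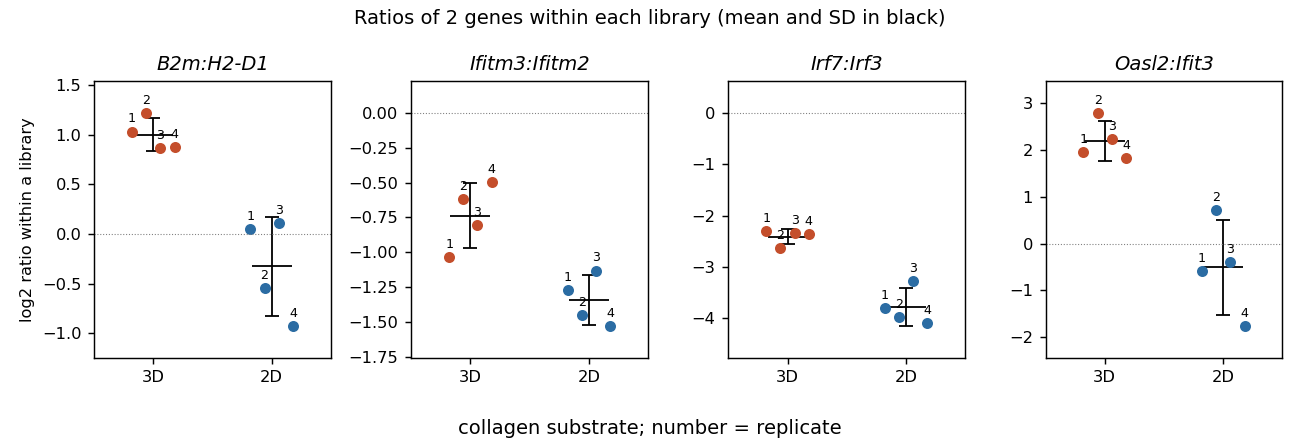
Ratios between pairs of genes within each library (normalized count + 1), on a log2 scale, for the 4 libraries on 3D collagen (left) and the 4 on 2D collagen (right), with black lines at the mean and 1 SD, for the pairs B2m to H2-D1, Ifitm3 to Ifitm2, Irf7 to Irf3 and Oasl2 to Ifit3. For each pair all 3D ratios lie above all 2D ratios; the pairs were picked after the values were seen.

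Many of the genes were low in the libraries numbered 4. Replicate 4 held the lowest value of the 3D libraries for 27 of the 35 tested genes (77.1%, beside 37.0% of all tested genes) and of the 2D libraries for 20 (57.1%, beside 30.6%). It was lowest on both substrates for 18 genes (51.4%, beside 23.1%). The median gene of the 35 reached 68.9% of the mean of replicates 1 to 3 in 3D replicate 4, and 70.6% in 2D replicate 4, beside 99.7% on 3D and 96.3% on 2D over all tested genes. Gbp2, Tapbp, Ifngr2 and B2m were among the genes low in both, whereas Ifit2 was highest in both. The labels give no feature that sets the libraries numbered 4 apart. Without both of them 3 of the 35 genes were called: B2m (log2 fold change 1.60), Oasl2 (1.68) and Irf9 (0.93).

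Per kb of exon, the levels of the 44 genes followed a similar order on both substrates. The 5 most abundant were B2m (9254), Ifitm2 (4759), Bst2 (3622), Ifitm3 (2729) and H2-D1 (1526) on 3D, and Ifitm2 (4808), B2m (3001), Bst2 (2661), Ifitm3 (1829) and H2-D1 (1202) on 2D, all as mean normalized counts per kb. These genes were thus abundant in both groups, while Ifit1, Mx1 and Ifih1 were near 0 in both.

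Of 158 other genes of the same pathways, listed by family, 97 passed the filter, 2 of them through the 3D libraries alone. On 3D 6 of the 97 were higher and none was lower, beside the same 2.33% and 3.39% of all tested genes; 22 were higher and 2 lower at an unadjusted p under 0.05, beside 11.7% and 12.6%. Their median log2 fold change was 0.25. By family, 2 of 7 other interferon regulatory factors and their binding proteins were higher, 1 of 12 genes of nucleic acid sensing and its signalling, and 3 of 34 other interferon-stimulated genes. None passed among 10 receptor chains, kinases and STATs, 14 genes of class I loading, 11 other class I genes and 9 genes of class II, of which the medians were 0.43, -0.18, 0.38 and 0.10.

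**Figure D5:**
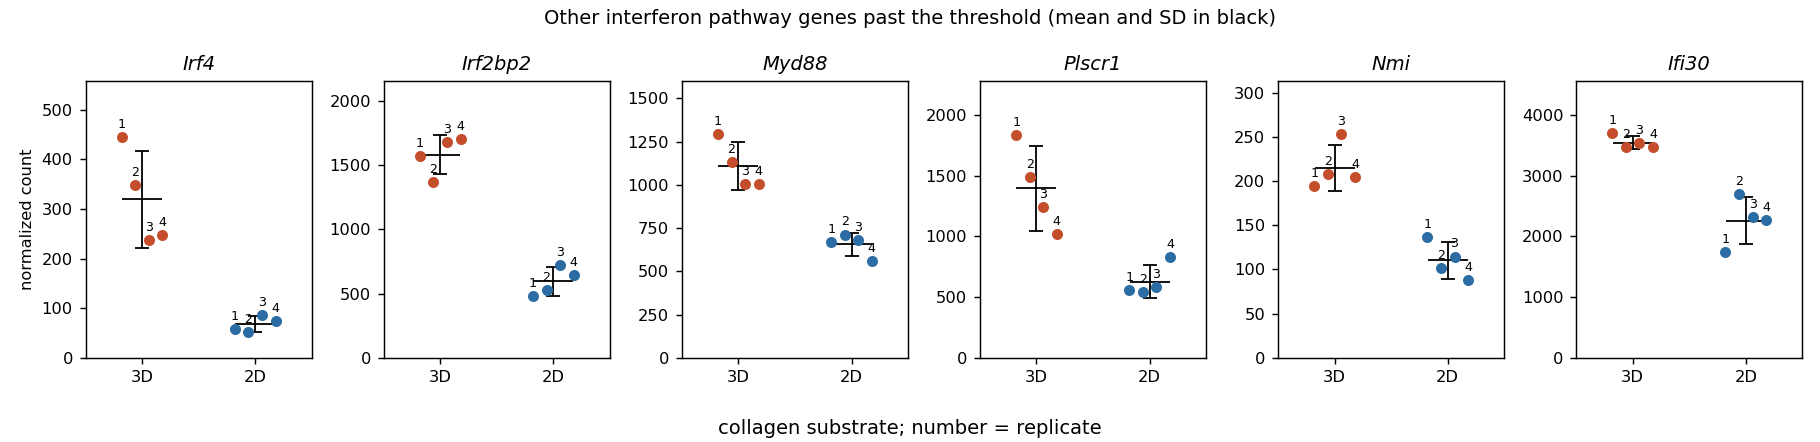
Normalized counts of the 6 other pathway genes that were higher on 3D collagen (left, 4 libraries) than on 2D collagen (right, 4 libraries), with black lines at the group mean and 1 SD. The 3D libraries lie above the 2D libraries for each gene, by 2.19 log2 units for Irf4 and 0.67 for Ifi30.

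Irf4, a regulatory factor best known from lymphocytes, had 445, 347, 238 and 247 normalized counts on 3D and 58.4, 52.6, 86.2 and 74.8 on 2D. The groups were far apart, with means of 319 ± 97.4 on 3D and 68.0 ± 15.4 on 2D (SD, n = 4 each) and a difference of 2.19 log2 units (SE 0.28, limma adjusted p = 0.00469). Its call held in every leave-one-out fit. Of the leukocyte markers in the same libraries, Cd68 ranged from 314 to 560 on 3D and from 135 to 373 on 2D, and Ptprc was at no more than 3.7 on 3D and 2.4 on 2D; their part in this difference was not tested. Irf2bp2, a corepressor that binds IRF2, had 1567, 1368, 1683 and 1700.0 on 3D and 480.0, 532, 724 and 641 on 2D. Its log2 fold change was 1.42 (SE 0.17, limma adjusted p = 0.00331), also kept in every leave-one-out fit, and an antisense gene model covers 20.5% of its exonic bases.

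Plscr1, an interferon-inducible phospholipid scramblase, had 1831, 1488, 1243 and 1016 normalized counts on 3D and 556, 543, 581 and 829.7 on 2D. The groups were apart, with 2D replicate 4 the highest of its group (difference 1.14 log2 units, limma adjusted p = 0.0207); leaving out 2D replicate 3 or 3D replicate 1, 2 or 3 ended the call, with limma adjusted p up to 0.0729. Myd88, the adaptor of Toll-like receptors, had 1297, 1131, 1005 and 1007 on 3D and 671, 713, 682 and 558 on 2D. All 3D values exceeded all 2D values (log2 fold change 0.76, limma adjusted p = 0.0231). Leaving out 3D replicate 1, 2 or 3 ended its call, with limma adjusted p up to 0.0807, and an antisense gene covers 11.3% of it.

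Nmi, a partner of STAT proteins, had 195, 208, 253 and 205 normalized counts on 3D and 137, 102, 115 and 88.2 on 2D (log2 fold change 0.97, limma adjusted p = 0.0378). Ifi30, a lysosomal thiol reductase of class II processing, had 3701, 3467, 3540.2 and 3467 on 3D and 1747, 2697, 2322 and 2274 on 2D (log2 fold change 0.67, limma adjusted p = 0.0377). Both stood apart without overlap. Nmi kept its call without 2D replicate 1 or 2 and Ifi30 without 2D replicate 2, and both lost it without any other library, with limma adjusted p up to 0.150 for Nmi and 0.125 for Ifi30. Without both libraries numbered 4, Myd88, Nmi and Ifi30 lost their calls (limma adjusted p between 0.0509 and 0.0925), and without GC trends Plscr1 did (0.0582).

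Other than Ifi30, the most abundant gene of each tested family did not pass. Log2 fold changes were 0.47 for Stat3, 0.38 for Irf2bpl (listed as 6430527G18Rik), 0.03 for the signalling adaptor Mavs, -0.32 for the chaperone calreticulin (Calr), -0.17 for the antibody receptor Fcgrt and 0.10 for the class II regulator Rfxank. Their limma adjusted p ranged from 0.359 to 0.933. Nlrc5, the transactivator of class I genes, had 14 reads in all on 3D and 10 on 2D.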

How the data were processed

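RNA sequencing of MOE cells on 3D and 2D collagen gave 8 libraries, 4 per substrate, grouped by their labels. HTSeq 0.6.1p1, DESeq2 and the mm10 build are named, per the submitters' processing notes; aligner, annotation and strand setting: not given in the sources used here, so reads of overlapping antisense genes cannot be told apart. The values deposited by the authors are a normalized signal per gene. Dividing them by what 1 read is worth gave whole numbers for 100% of values (tolerance 0.001 reads), so reads were recovered.

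limma 3.58.1 (R 4.3.3) was run on log2(normalized count + 1) over genes of at least 10 in at least 4 libraries, without covariates. On these reads, edgeR 4.0.16 with TMM (308 genes higher, 369 lower) and DESeq2 1.42.0 (708 higher, 871 lower) served as alternatives, beside other scalings, filters, pseudocounts, a replicate block, leave-one-out fits and, chosen after seeing the data, removal of GC trends by lowess and edgeR with the block. The computations were tested on simulated data. Positions and overlaps came from GENCODE M21 on GRCm38, matched for 22843 symbols, 1890 through an older symbol. Intervals cover the spread between libraries. The members and lists were chosen with earlier results of these data known. Some genes are not reported here. Genes named in full were those past the threshold and, in each role, those with the smallest adjusted p, the largest change and the highest level.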

Additional observations from a re-analysis of the deposited data

Results flagged for a closer look

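In 82 groups of 4 values (a tested gene of the 35, or a called gene of the other lists, on 1 substrate), the highest or lowest library was far from the others in 6, where chance gives about 1 in 20. In the 3D libraries this was H2-D1 in replicate 4, with 3017 normalized counts against 4182 to 4321. In the 2D libraries, replicate 1 was high for Irf1 (569 against 506 to 515), replicate 2 for Irf3 (2796 against 2095 to 2184), and replicate 3 for Ifnar2 (1078 against 784 to 829). Replicate 4 was low for Psmb8 (93.1 against 189 to 204) and high for Plscr1 (829.7 against 543 to 581).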

How the results depend on the processing

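Of 44 pathway genes, the 4 higher on 3D became 7 with DESeq2 and 0 to 4 with 1 library left out (0 without 3D replicate 3, 1 without 3D replicate 1 or 2, 2 without 2D or 3D replicate 4), and none was lower under any alternative run. The 6 higher among the other pathway genes became 13 with edgeR and the replicate block, 12 with the block in limma, 10 with library size as the only scaling, and 2 to 6 with 1 library left out; 1 (Pml) was lower with the block in limma. Over all genes, 275 higher and 401 lower became 708 and 871 with DESeq2, 481 and 605 without GC trends, 718 and 643 with edgeR and the block, 663 and 742 with the block in limma, and 44 to 267 and 104 to 370 with 1 library left out; 496 were higher with library size as the scaling and 171 without both libraries numbered 4. The cause of these shifts was not tested. The block in limma called 6 of the 44, adding Irf9 (adjusted p = 0.0264) and Usp18 (adjusted p = 0.0168). Libraries of the same number deviated together for numbers 2, 3 and 4 (correlations 0.37, 0.25 and 0.81) and not for number 1 (-0.17), and not every library correlated best with its own number. The labels give no pairing and the correlations do not hold for every number, so the numbers were not used as pairs, although both libraries numbered 4 deviated together. The median log2 fold change of all genes was 0.02 as deposited, 0.19 by library size and 0.06 by TMM. Genes of a few reads per library, such as Ifit1 and Mx1, were too shallow to compare.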
